A study of Mus musculus with 59 samples.

Results

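Imprinted genes are transcribed mainly from the copy inherited from 1 parent, and 10 of them, many known for roles in growth control, were followed here. The set was H19, Igf2, Cdkn1c, Meg3, Dlk1, Grb10, Ndn, Peg3, Plagl1 and Peg12. They were taken by name, and all 10 were listed in each of the 10 gene-level tables, which hold 51810 gene symbols or slightly more. RNA-seq had been run on cells sorted from the bone marrow of C57BL/6 mice to ask how loss of Daxx, a chaperone of the histone variant H3.3, changes transcription in early haematopoiesis. The 59 libraries came from KLS cells (Kit-positive, lineage-negative, Sca-1-positive cells that include the stem cells), granulocyte-monocyte progenitors (GMPs), the multipotent progenitors MPP3 and MPP4, and long-term haematopoietic stem cells (LT-HSCs).

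KLS cells and GMPs with no time on the label, called untimed here, were Daxx +/+ Cre +/- (WT, 2 libraries each) and Daxx F/F Cre +/- (Daxx-KO, 2 each). The study profiled KLS cells and GMPs of Daxx mice at 3 and 24 weeks after induction. It also profiled those of donor origin, sorted from irradiated hosts after bone marrow transplantation. The sets at 3 and 24 weeks carry their time, so the untimed libraries are probably the transplanted set, though no label says so. At 3 weeks post induction (w.p.i.) of Mx1Cre, both cell types came from Daxx +/+ mice (WT, 3 each), Daxx F/F mice (Daxx-KO, 3 each) and Daxx F/F Pu.1 F/F mice (labelled DKO, 2 each). A separate line at 3 w.p.i. carried Pu.1 +/+ (WT) or Pu.1 F/F (labelled Pu.1-KO) with Mx1Cre, with 2 libraries per genotype and cell type. At 24 w.p.i. the tables separated 2 WT from 4 Daxx-deleted libraries per cell type. Those 4 are Daxx F/F and Daxx F/F Pu.1 F/F together, because their columns could not be told apart by label. The MPP3 and MPP4 libraries (4 each, Mx1Cre, 3 w.p.i.) are of Daxx +/+ and Daxx F/F mice by label. The 7 LT-HSC libraries (RosaCreER, 3 days post induction, d.p.i.) are of Daxx +/+, heterozygous Daxx +/F and Daxx F/F mice by label. The columns of these sets do not name the genotype, so these libraries were used by cell type only. All control mice carried a Cre as well. Mx1Cre is driven by an interferon-responsive promoter and was induced with a double-stranded RNA mimic, and RosaCreER is ubiquitous and was induced with tamoxifen, so neither deletes in haematopoietic cells alone. The study's methods call replicates of its genomic assays biological, and many columns carry animal numbers, but no label says that a library was 1 mouse rather than a pool, so p-values measure the spread between these libraries.

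Imprinted genes are marked in the germ line by DNA methylation that is protected after fertilization by ZFP57 and ZFP445 together with TRIM28 and DNA methyltransferases. Many of them regulate growth. Quiescent stem cells are known to express several, among them the cell cycle inhibitor Cdkn1c, and the Dlk1-Meg3 and H19-Igf2 domains have been studied for their part in stem cell dormancy. All libraries are of 1 inbred strain and the tables are per gene, so the values below are totals over both alleles and do not show from which allele a transcript came.

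Depth and purity set what can be read from these values. The libraries held between 3045852 and 30136629 reads assigned to genes. Daxx checked the labels: in KLS cells at 3 w.p.i. its normalised read count was 423 to 505 in WT, 72.2 to 102 in Daxx-KO and 78.1 to 93.9 in libraries labelled DKO. The Spi1 count, which covers the whole Pu.1 gene and not the deleted part alone, was 2993 to 3330 in KLS libraries labelled DKO against 1669 to 2320 in WT, so it does not separate those labels in the direction of a loss. It was 2589 to 2707 against 3395 to 3934 in GMPs of the Pu.1 line, and overlapped between genotypes in KLS cells of that line. Stem cell markers were present in every KLS group except that Hoxb5 had 0 reads, and primary granule markers were present in every GMP group. In 6 libraries more than 20000 genes reached 1 read per 1000000 gene reads (r.p.m.), and olfactory and vomeronasal receptor genes summed to 880 to 4590 r.p.m., against 34.9 to 497 r.p.m. in the other 53. The 6 were both KLS libraries labelled Pu.1-KO, WT b of the same table, 1 GMP library labelled Pu.1-KO (a), MPP3 d and MPP4 a.

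Promoter sequences of the 2 members with more than 1 called change, Grb10 and Plagl1, are shown first because CpG content differs so widely among them. They are RefSeq windows on GRCm38.p6 of 300 bases, from 250 before to 50 after a transcript start, on the strand of the gene, with each CG in capitals. Grb10 (chr11:11930508-12038683, minus strand) has 2 such windows, at chr11:12037371-12037670 and chr11:12027922-12028221, and Plagl1 (chr10:13060504-13131694, plus strand) has 1, at chr10:13090582-13090881.

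Grb10 upstream start: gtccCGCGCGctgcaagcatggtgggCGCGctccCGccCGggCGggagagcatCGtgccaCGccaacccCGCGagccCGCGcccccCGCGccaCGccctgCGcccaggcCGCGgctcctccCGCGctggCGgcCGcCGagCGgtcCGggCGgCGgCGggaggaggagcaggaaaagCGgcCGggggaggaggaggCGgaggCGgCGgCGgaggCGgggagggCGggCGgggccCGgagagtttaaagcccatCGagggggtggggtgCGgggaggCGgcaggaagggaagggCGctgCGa

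Grb10 downstream start: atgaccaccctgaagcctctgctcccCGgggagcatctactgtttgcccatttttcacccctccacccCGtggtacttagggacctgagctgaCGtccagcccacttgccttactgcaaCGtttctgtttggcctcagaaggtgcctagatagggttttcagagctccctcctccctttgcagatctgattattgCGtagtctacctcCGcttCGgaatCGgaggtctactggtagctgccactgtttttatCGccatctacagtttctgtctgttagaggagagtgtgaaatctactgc

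Plagl1: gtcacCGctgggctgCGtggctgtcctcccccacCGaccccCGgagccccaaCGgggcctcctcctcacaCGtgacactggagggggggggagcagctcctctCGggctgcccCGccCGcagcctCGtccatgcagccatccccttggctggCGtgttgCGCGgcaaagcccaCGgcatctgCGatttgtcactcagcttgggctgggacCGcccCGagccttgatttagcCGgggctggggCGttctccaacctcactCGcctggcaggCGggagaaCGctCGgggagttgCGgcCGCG

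The upstream Grb10 window held 45 CpGs, more than 98.07% of the 32851 RefSeq promoters of the same length, whereas the downstream window held 9 (more than 54.22%). The Plagl1 window held 26 CpGs, more than 83.13%, and the median promoter held 7. In all, 13 windows were matched for 8 of the 10 members, and none was given for H19 or Cdkn1c. The hexamer TGCCGC, the letters that ZFP57 is known to bind when methylated, was searched on both strands. It was found in 4 of the 13 windows (the upstream Grb10 window, Plagl1, 1 of the 4 for Igf2 and 1 of the 2 for Meg3) and in 11.61% of all promoters. The hexamer itself holds a CpG, and no share was computed for promoters of like CpG content. These shares are therefore not read as enrichment, and binding by ZFP57 was not tested.

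The members spanned a very wide range of abundance, from a gene read in every library to one with no read at all. Grb10, an adaptor that dampens signalling from the insulin and IGF1 receptors, had reads in all 59 libraries and 61003 reads in total. Peg12, a member of the Frat family linked to Wnt signalling, had reads in 58 libraries but 2503 reads. Plagl1, a zinc finger transcription factor, had 5178 reads in 54 libraries. Cdkn1c, which encodes the cyclin-dependent kinase inhibitor p57, had 2616 reads in 53, and Meg3, a long non-coding RNA, had 5437 reads in 47. Few reads were found for the zinc finger gene Peg3 (1851 reads in 43 libraries), the growth factor Igf2 (895 in 39), Dlk1, which encodes a transmembrane protein related to Notch ligands (635 in 35), and the non-coding RNA H19 (377 in 20). Ndn, which encodes necdin, a growth suppressor of the MAGE family, had 0 of 860859617 reads. A count of 0 allows up to 3 reads, that is 0.00348 r.p.m. over all libraries, or 0.0995 to 0.985 r.p.m. in a single library. This limit covers counting error only and does not bound transcription if reads over Ndn were not assigned to it. Ndn was also at 0 in the 6 libraries with more than 20000 genes at 1 r.p.m. Whether its reads were assigned was not tested. Gm32061, which spans Ndn on the opposite strand without sharing exon bases in GENCODE M21, had 1935 reads in 42 libraries, and whether counting used strand is not given in the sources used here.

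**Figure D1:**
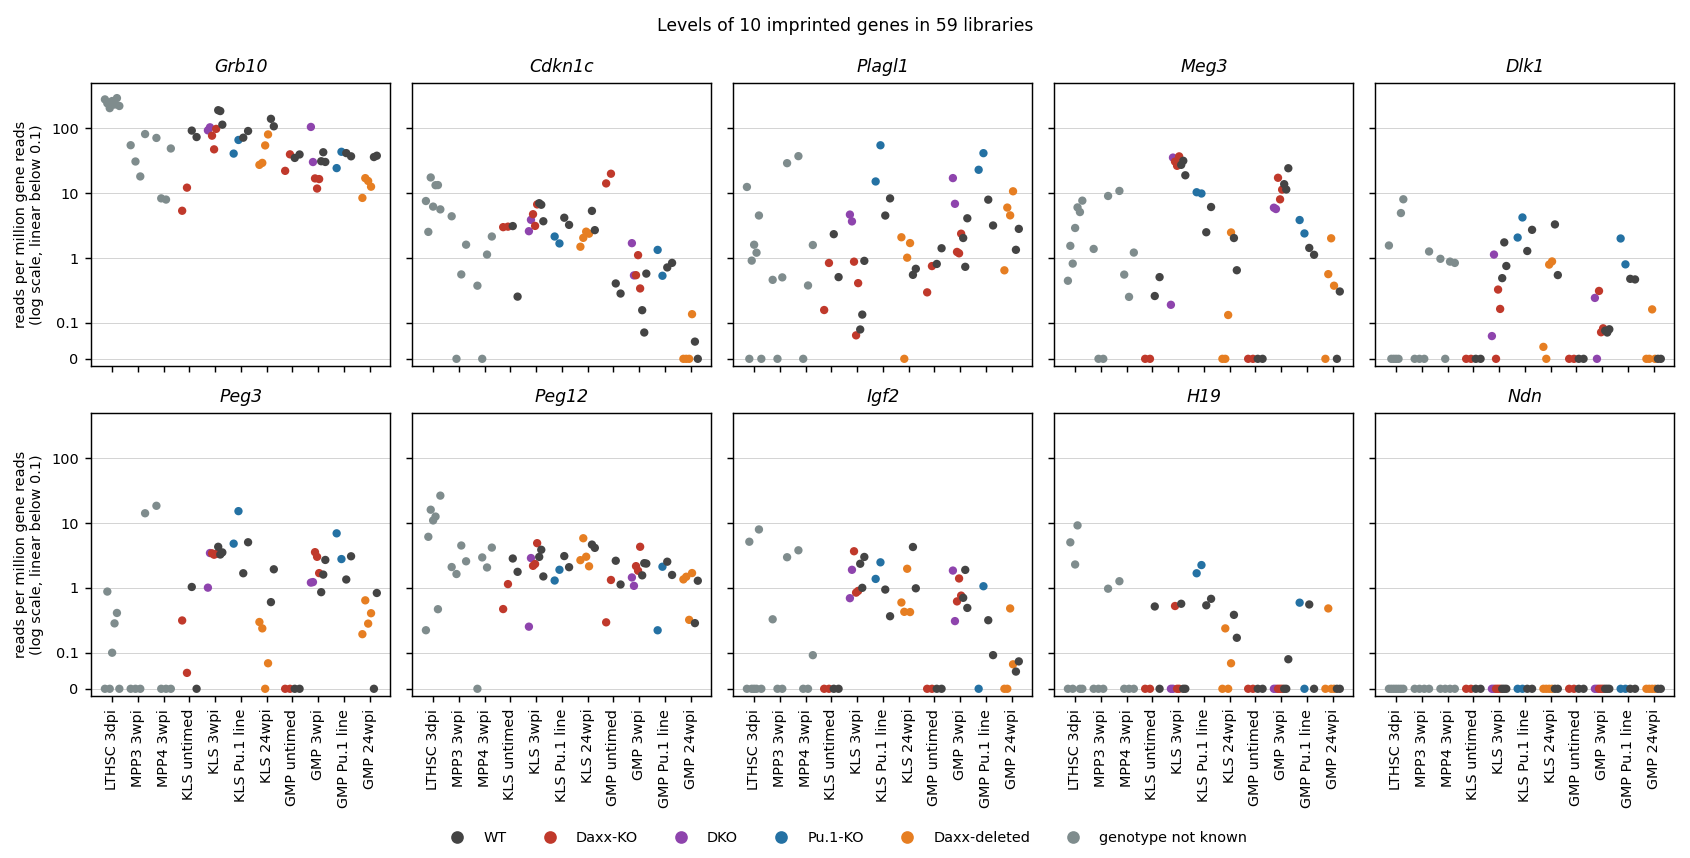
Level of each member by library. The vertical axes give reads per 1000000 gene reads (linear near 0, then logarithmic) and the columns are the 11 cell populations, with 1 point per library. Grb10 is the one member read in all 59 libraries and reaches its highest median, 244 r.p.m., in LT-HSCs, and Ndn lies at 0 throughout.

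Levels in the following sentences are r.p.m. over libraries of all genotypes, and tables were normalised separately, so no test was made between cell types. Grb10 had its highest median in LT-HSCs, 244 r.p.m. with a range of 205 to 293 over 7 libraries. The KLS median was 79.0 (5.36 to 191, 22 libraries), the MPP3 median 43.0 (18.1 to 81.8, 4 libraries), the GMP median 30.8 (8.46 to 105, 22 libraries) and the MPP4 median 28.7 (7.98 to 71.3, 4 libraries). Every LT-HSC library lay above every other library, while the ranges of the other 4 cell types overlapped. Cdkn1c followed the same order at its top, with medians of 7.58 r.p.m. in LT-HSCs (2.53 to 17.5), 3.08 in KLS cells (0.254 to 7.01) and 0.469 in GMPs (0 to 20.0), with overlap between all of these. Peg12 had a median of 11.0 r.p.m. in LT-HSCs (0.223 to 26.6) and between 1.53 and 2.52 in the other cell types, again with overlap. Per kilobase of exon, the scale on which genes can be set beside each other, Grb10 was the highest member in each of the 5 cell types, with medians of 26.8 r.p.m. per kb in LT-HSCs, 8.69 in KLS cells and 3.39 in GMPs. In LT-HSCs, Peg12 (4.18) and Cdkn1c (3.72) came next, and Meg3, spread over an exonic length of 18089 bases, stood at 0.161.

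H19, Igf2 and Dlk1 were present in some LT-HSC libraries and absent from others. H19 had reads in 3 of the 7 (48.3, 21.6 and 88.1 normalised), Igf2 in 2 (49.3 and 74.0) and Dlk1 in 3 (15.2, 45.7 and 76.0). All 3 genes were at 0 in LT-HSC library c. Peg12 ran from 2.17 to 251 in the same libraries, with a and f (4.35) far below the other 5, and Grb10 only from 1938 to 2728.2, so the spread between libraries was wider in the low members than in the abundant one. Genotypes of these libraries are not known, and no comparison among them was made.

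How many members changed with genotype is given next, by comparison. A change was called where limma with Benjamini-Hochberg adjustment over all genes tested gave an adjusted p under 0.05, on log2(normalised count + 1), for genes with a mean of 10 or more in the table. Members below that mean were not tested, and a member that passed only through 1 group had to differ, so the counts are read against the share of all genes called and support nothing further. Across the 13 comparisons there were 5 calls: Grb10 in 2 of 13, Plagl1 in 2 of 11 and Cdkn1c in 1 of 9.

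In untimed KLS cells, 1 of 3 tested members was called in Daxx-KO against WT, where 23.1% of all 13508 genes tested were called, and the median log2 difference was -1.39 over those members and 0.03 over all genes. In untimed GMPs, 1 of 2 was called against 33% of all genes, with medians of 2.51 and -0.01. In no other comparison was so large a share of the genes tested called. At 3 w.p.i. in KLS cells, 0 of 7 members were called in Daxx-KO against WT (0.257% of all genes, medians -0.15 and -0.0005), 1 of 7 in DKO against WT (17.6%, medians -0.68 and -0.0003) and 0 of 7 in DKO against Daxx-KO (15.4%, medians -0.41 and -0.01). By limma, 1 of the 7 had an unadjusted p under 0.05 in each of the comparisons with no call, and DESeq2 called 1 member in each and edgeR 0. In GMPs at 3 w.p.i., 0 of 6 were called in Daxx-KO against WT (0.0948% of all genes), DKO against WT (0.292%) and DKO against Daxx-KO (0.0583%), with member medians of -0.19, -0.26 and -0.53 and all-gene medians of -0.01, -0.01 and -0.0064. Unadjusted p was under 0.05 for 1, 2 and 3 of the 6, edgeR called 0 in each, and DESeq2 called 0, 2 and 2.

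In the Pu.1 line, 0 of 9 tested members were called in KLS cells (0.81% of all genes, medians 0.89 and 0.12), with 1 at an unadjusted p under 0.05 and 1 called by each of edgeR and DESeq2. In GMPs of that line 1 of 7 was called (17.6% of all genes, medians 0.85 and -0.0023). At 24 w.p.i., 0 of 8 were called in KLS cells (0.807%, medians -1.49 and -0.02), with 1 at an unadjusted p under 0.05, 1 called by DESeq2 and 0 by edgeR. In GMPs at that time 1 of 4 was called (3.63%, medians 0.84 and 0.0086). Between MPP3 and MPP4, with the animal as a block, 0 of 7 members and 0% of all genes were called, with 1 member and 290 genes at an unadjusted p under 0.05, and neither edgeR nor DESeq2 called a member. Both comparisons at 24 w.p.i. and that of MPP3 with MPP4 were added after the column names were seen. The WT libraries of a table are shared by the comparisons within it.

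**Figure D2:**
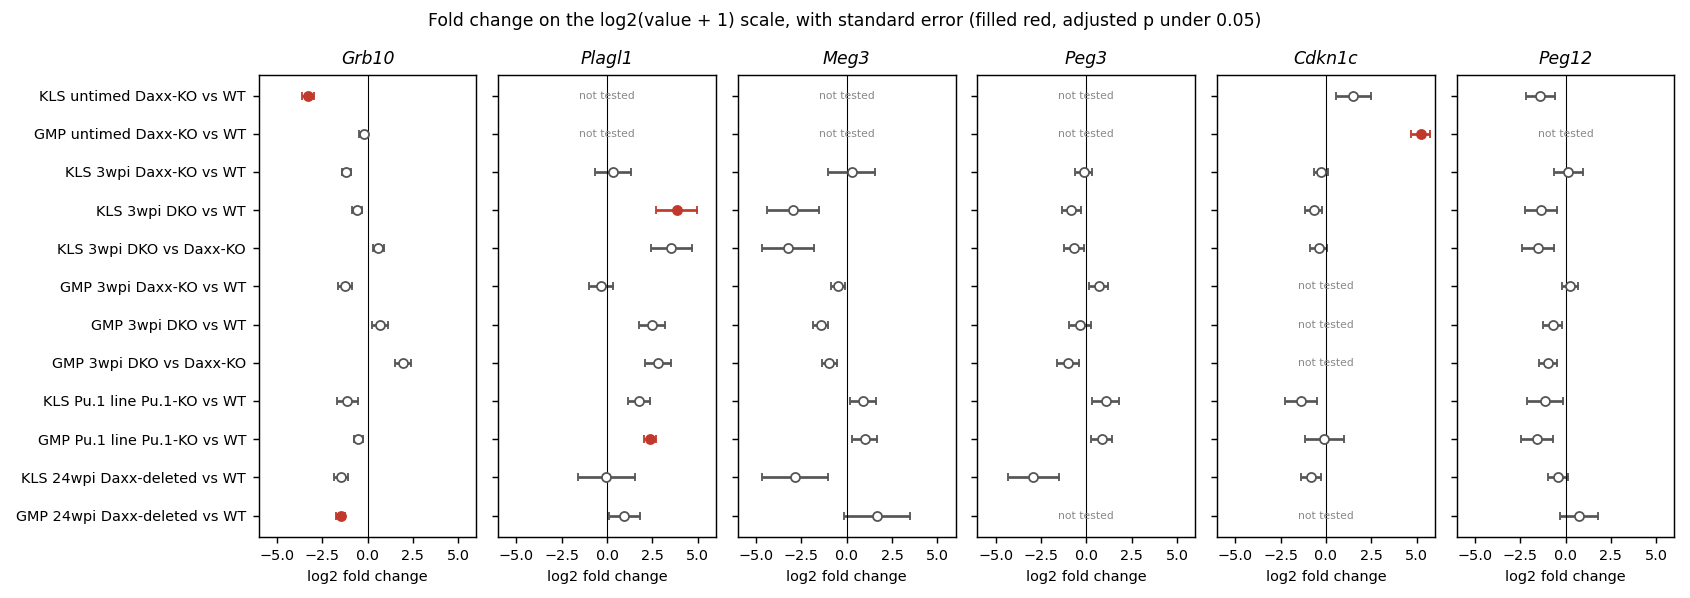
Change of 6 members in 12 comparisons. The horizontal axis gives the log2 fold change, with the first-named genotype over the second, each point is 1 comparison with its standard error, and filled red points are called at an adjusted p under 0.05 by limma. Grb10 lies below 0 in all 6 comparisons of Daxx-KO or Daxx-deleted with WT and is called in 2 of them, and Plagl1 lies above 0 in all comparisons of libraries labelled DKO or Pu.1-KO.

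Grb10 was lower in Daxx-KO or Daxx-deleted libraries than in WT in most sets, but not on average in GMPs labelled DKO. In untimed KLS cells its normalised read count was 614 and 499.5 in WT and 37.2 and 83.6 in Daxx-KO. The groups were well apart, and Grb10 fell by 3.29 on the log2 scale (SE 0.34, n = 2 and 2, adjusted p = 2.278e-04, limma with Benjamini-Hochberg adjustment). In bulk libraries fewer cells of a type and less RNA per cell cannot be told apart. Beside this fall, 9 of 9 tested stem cell markers (Hlf, Mecom and Procr among them) were called lower in the same libraries, with a summed level of 591 to 634 r.p.m. against 4202 to 4441 in WT, and 7 of 8 GMP markers were called higher, with sums of 1760 to 2302 r.p.m. against 118 to 219. Stromal and endothelial markers summed to 3.84 to 4.10 r.p.m. against 91.2 to 127, with Col3a1 and Pdgfra at 0 in Daxx-KO. Their part in the result was not tested. In untimed GMPs Grb10 was 225 and 253 in WT and 152 and 281 in Daxx-KO. Those groups overlapped, and the log2 difference was -0.21 (95% interval -0.71 to 0.30, adjusted p = 0.595 by limma). Library Daxx-KO 2 decided it, since without it the difference was -0.65 with an adjusted p of 0.0168, and without Daxx-KO 1 it was 0.24.

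In KLS cells at 3 w.p.i., Grb10 was 2531, 2439.8 and 1517 in WT, 995, 654 and 1255 in Daxx-KO, and 1413 and 1419 in libraries labelled DKO. The last WT value is from the column whose animal number no label gives, called unnumbered here. Every Daxx-KO library lay below every WT library and the DKO pair between them. The log2 difference of Daxx-KO from WT was -1.17 (SE 0.26), which did not pass the adjustment over all genes (adjusted p = 0.145 by limma). The unnumbered WT library, the lowest of its group, decides this: without it the difference was -1.41 with an adjusted p of 0.028 by limma, and DESeq2 on all libraries gave an adjusted p of 0.00157. B-lineage markers summed to 122 to 2397 r.p.m. in Daxx-KO against 35.3 to 57.5 in WT, with 0 of 7 called and Ms4a1 at 0 in both groups. Stem cell markers summed to 1663 to 4094 r.p.m. against 3715 to 5583, with 0 of 9 called. Daxx-KO 2, the library lowest in Grb10, held the highest B-lineage and the lowest stem cell sum, and without it the difference was -0.92 with an adjusted p of 0.343. The part of these markers in the result was not tested. Over the 12 alternatives run on this value the adjusted p lay between 0.00157 and 0.461 and the difference stayed negative. DKO differed from WT by -0.57 (adjusted p = 0.196) and from Daxx-KO by 0.60 (adjusted p = 0.197), neither called by limma.

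GMPs at 3 w.p.i. showed the same order of WT and Daxx-KO at a lower level. Grb10 was 413, 517 and 403 in WT and 213, 152 and 193 in Daxx-KO, without overlap. The log2 difference was -1.26 (SE 0.38, adjusted p = 0.946 by limma), and no alternative called it, with adjusted p from 0.177 to 1. Daxx-KO b, at 152, had a B-lineage sum of 731 r.p.m. against 60.5 to 80.0 in the other Daxx-KO libraries and 15.3 to 50.8 in WT, and a GMP marker sum of 6813 r.p.m. against 10117 to 14970 in WT. Without it the difference was -1.12. In the pair labelled DKO Grb10 was 1324 and 388, so that 1 library lay above all 6 others and the other just below the lowest WT value. DKO differed from Daxx-KO by 1.95 (SE 0.43, adjusted p = 0.154 by limma), and the call turned on library DKO b, without which the difference was 2.84 with an adjusted p of 0.0121. DESeq2 called it on all libraries with an adjusted p of 1.792e-04, within a range of 1.792e-04 to 0.657 over the alternatives. DKO a, at 1324, had a B-lineage sum of 278 r.p.m. and a GMP marker sum of 7918, and without it DKO differed from Daxx-KO by 1.07 and from WT by -0.19. Of the markers tested, 0 of 7 of the B lineage and 0 of 8 of GMPs were called among these genotypes, Ms4a1 was at 0 throughout, and their part in the result was not tested.

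**Figure D3:**
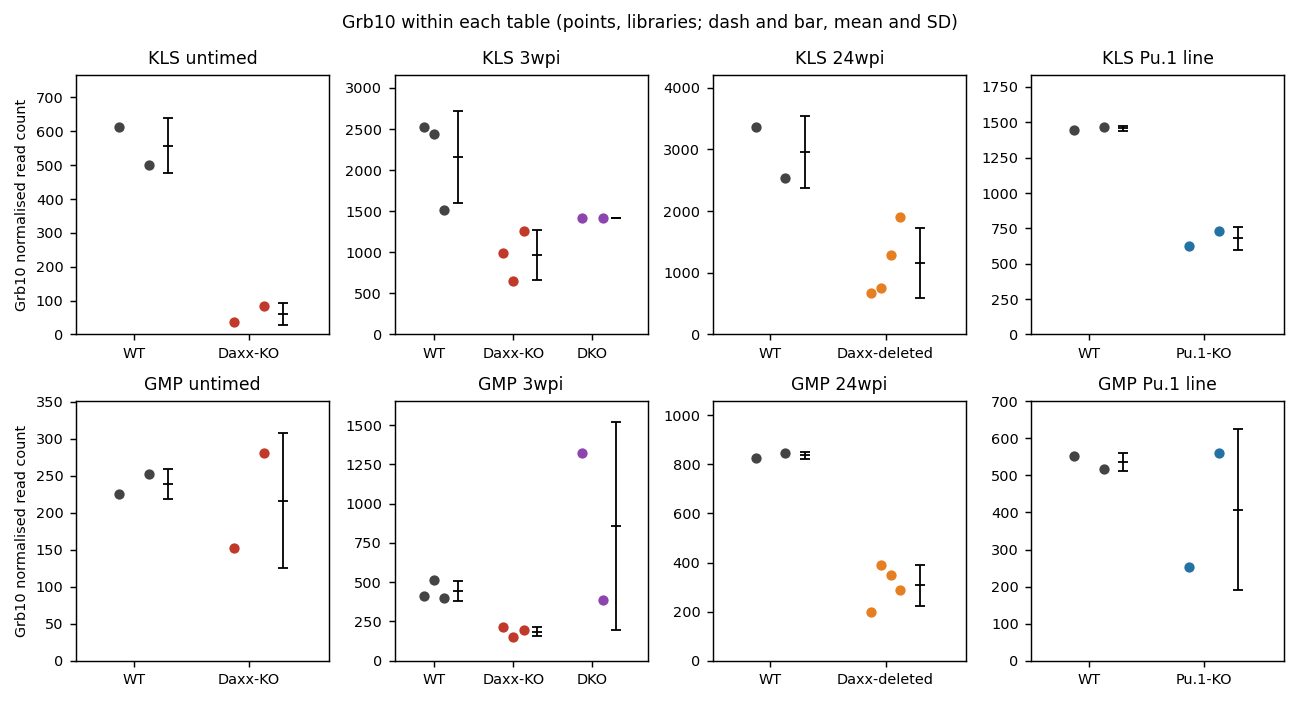
Grb10 by genotype in 8 tables. The vertical axis gives the normalised read count, 1 point per library with the mean and SD of each group, and tables were normalised separately. In untimed KLS cells the 2 Daxx-KO libraries lie at 37.2 and 83.6 and the 2 WT libraries at 499.5 and 614, and at 24 w.p.i. all 4 Daxx-deleted libraries lie below both WT libraries in KLS cells and in GMPs.

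At 24 w.p.i. Grb10 was 825 and 847 in WT GMPs and 198, 389, 351 and 290.1 in Daxx-deleted GMPs. Grb10 fell by 1.49 on the log2 scale (SE 0.27, adjusted p = 0.006003 by limma), and it lost its call without either WT library (adjusted p = 0.0936 without a, 0.122 without b). In KLS cells it was 3372 and 2542 in WT and 673, 754, 1288 and 1903 in Daxx-deleted libraries, again without overlap. The difference of -1.47 (SE 0.39) had an adjusted p of 0.203 by limma and 0.033 by DESeq2, and over the alternatives it ran from 0.033 to 1. Erythroid and megakaryocyte markers were lower as well. They summed to 78.3 to 132 r.p.m. in Daxx-deleted KLS libraries against 524 to 552 in WT (4 of 9 called lower). In GMPs they summed to 28.2 to 49.0 against 229 to 251 (7 of 9 called lower), with none of the 9 at 0. Lower sums were not confined to sets in which Grb10 fell. In untimed GMPs, where Grb10 overlapped, they were 33.2 to 64.3 r.p.m. in Daxx-KO against 95.8 to 106 in WT (3 of 5 called lower). In untimed KLS cells they were 30.9 to 35.6 against 84.2 to 112 (2 of 5). At 3 w.p.i. they were 120 to 229 against 233 to 300 in KLS cells (1 of 8). In GMPs at 3 w.p.i. they overlapped, at 60.1 to 91.5 against 76.6 to 157 (0 of 7). Stem cell markers summed to 1518 to 3508 r.p.m. against 2859 to 4255 in KLS cells (0 of 9 called), with Daxx-deleted a and b, the lowest in Grb10, at 1865 and 1518. In GMPs they summed to 106 to 126 against 244 to 296 (Mecom and Meis1 called lower, 2 of 8). Hoxb5 alone was at 0 in all 4 groups. The part of these markers in the result was not tested.

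Taking the 6 comparisons of Daxx-KO or Daxx-deleted with WT, Grb10 was lower without overlap in 5, the exception being untimed GMPs. At 3 and 24 w.p.i. the KLS and GMP columns carry the same animal numbers, so these comparisons are not independent of each other. Of all genes tested, 29.8% and 34.1% were lower without overlap in untimed KLS cells and GMPs, 9.16% and 3.46% at 3 w.p.i. and 8.76% and 12.1% at 24 w.p.i. Of the 11743 genes tested in all 6, 55 (0.468%) were so in 5 or more. No other member was lower without overlap in more than 1 of the 6. DKO against WT at 3 w.p.i. is not among the 6, though mice labelled Daxx F/F Pu.1 F/F are pooled in the 24 w.p.i. groups. In DKO against WT, Grb10 was lower without overlap in KLS cells (log2 difference -0.57). In GMPs it was higher on average, with overlap (0.70). In the Pu.1 line, for which the labels name no Daxx deletion, Grb10 was 1444 and 1470 in WT KLS cells and 623 and 733 in those labelled Pu.1-KO, a log2 difference of -1.11 (SE 0.58, adjusted p = 0.206 by limma). WT b and both libraries labelled Pu.1-KO are among the 6 with more than 20000 genes. Stem cell markers summed to 1103 to 1761 r.p.m. in those labelled Pu.1-KO against 2591 to 2788 in WT (0 of 9 called), and B-lineage markers to 499.9 to 912 against 203 to 258 (0 of 7 called). The Daxx count was itself 920.3 and 625 in these WT libraries and 478 and 295 in those labelled Pu.1-KO. The part of these values in the result was not tested. In GMPs of that line it was 553 and 518 in WT and 253 and 561 in those labelled Pu.1-KO, which overlapped (-0.51, adjusted p = 0.155). Library Pu.1-KO b decided that value, since without it the difference was -1.08 with an adjusted p of 5.538e-06.

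Between progenitor types of the same animals, Grb10 was 597, 321, 191 and 923 in MPP3 of animals a, b, c and d and 847, 85.4, 82.7 and 483 in their MPP4. MPP3 was higher in 3 of the 4 animals. The difference of 0.88 (SE 0.40, 95% interval 0.10 to 1.66) had an adjusted p of 0.999 by limma with the animal as a block, and no alternative called it (0.795 to 1). MPP3 d and MPP4 a are 2 of the 6 libraries with more than 20000 genes at 1 r.p.m., with 22522 and 22809 genes and receptor sums of 2380 and 2943 r.p.m. Animal a is the one in which MPP4 was higher, without it the difference was 1.34 and without animal d 0.86, and the part of that signal was not tested.

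Plagl1 was higher in libraries labelled as lacking Pu.1. In KLS cells at 3 w.p.i. its normalised read count was 70.9 and 50.1 in DKO, 1.08, 1.77 and 12.0 in WT and 11.3, 0.897 and 5.23 in Daxx-KO. Both DKO libraries lay above all 6 others, although the WT counts rested on 15 reads in all. Plagl1 passed the filter on low values through the DKO libraries alone, with means of 60.5 in DKO, 4.95 in WT and 5.81 in Daxx-KO. Plagl1 rose by 3.85 on the log2 scale in DKO against WT (SE 1.13, adjusted p = 0.0425 by limma). Without the filter on low values the adjusted p was 0.068, by edgeR 0.0544, and it lay between 0.0997 and 0.238 without WT 1, WT 2, DKO 1 or DKO 2, so 5 of 11 alternatives kept the call. From Daxx-KO, DKO differed by 3.53 (SE 1.13, adjusted p = 0.0638 by limma and 0.0188 by DESeq2, with a range over alternatives of 0.0188 to 0.303). GMP markers summed to 7215 to 8240 r.p.m. in the DKO KLS libraries against 375 to 3356 in WT, with 4 of 8 called higher and none at 0, and 3 of 9 stem cell markers were called lower. Their part in the result was not tested.

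In GMPs at 3 w.p.i., Plagl1 was 215 and 87.8 in DKO, 27.0, 8.83 and 54.4 in WT and 15.6, 15.2 and 27.7 in Daxx-KO. The DKO pair again lay above all others, DKO a being the library with the B-lineage sum of 278 r.p.m. given above, without which the difference from WT was 1.84 and from Daxx-KO 2.17. The differences of 2.48 from WT (SE 0.72) and 2.81 from Daxx-KO (SE 0.72) were not called by limma (adjusted p = 0.318 and 0.227) and were called by DESeq2 (0.0428 and 0.00298). Those were the lowest of the adjusted p values over the alternatives, and the highest were 0.957 and 0.906.

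In the Pu.1 line Plagl1 was higher in both cell types labelled Pu.1-KO than in their WT. In its GMPs Plagl1 was 106 and 44.4 in WT and 239 and 534 in libraries labelled Pu.1-KO. It rose by 2.36 on the log2 scale (SE 0.34, adjusted p = 1.021e-09 by limma), and each of 9 alternatives kept the call, with adjusted p from 1.765e-14 to 0.0484. In its KLS cells Plagl1 was 90.8 and 134 in WT and 232 and 607 in Pu.1-KO, a difference of 1.76 (SE 0.61, adjusted p = 0.0799 by limma). Rescaling by TMM (0.0305), edgeR (0.0187) and DESeq2 (0.0404) each called it, within a range of 0.00198 (without Pu.1-KO a) to 0.968. All genes shifted by a median of 0.12 in that table and by 0.27 after TMM rescaling, so the difference is relative to a moving baseline.

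Other values moved with Plagl1 in these libraries. Receptor genes of the olfactory and vomeronasal families summed to 1202 to 4590 r.p.m. in KLS libraries labelled Pu.1-KO against 375 to 880 in WT, and to 497 to 982 against 265 to 361 in GMPs. B-lineage markers summed to 222 to 470 r.p.m. against 103 in GMPs, with 5 of 7 called higher and Ms4a1 at 0 in both groups. Over all 59 libraries Plagl1 lay between 8.32 and 54.9 r.p.m. in the 6 with more than 20000 genes and between 0 and 41.5 in the other 53. In the KLS and GMP libraries labelled DKO the receptor sum was 35.2 to 74.9 r.p.m., inside the range of the 53. The part of this signal in the Plagl1 result of the Pu.1 line was not tested.

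**Figure D4:**
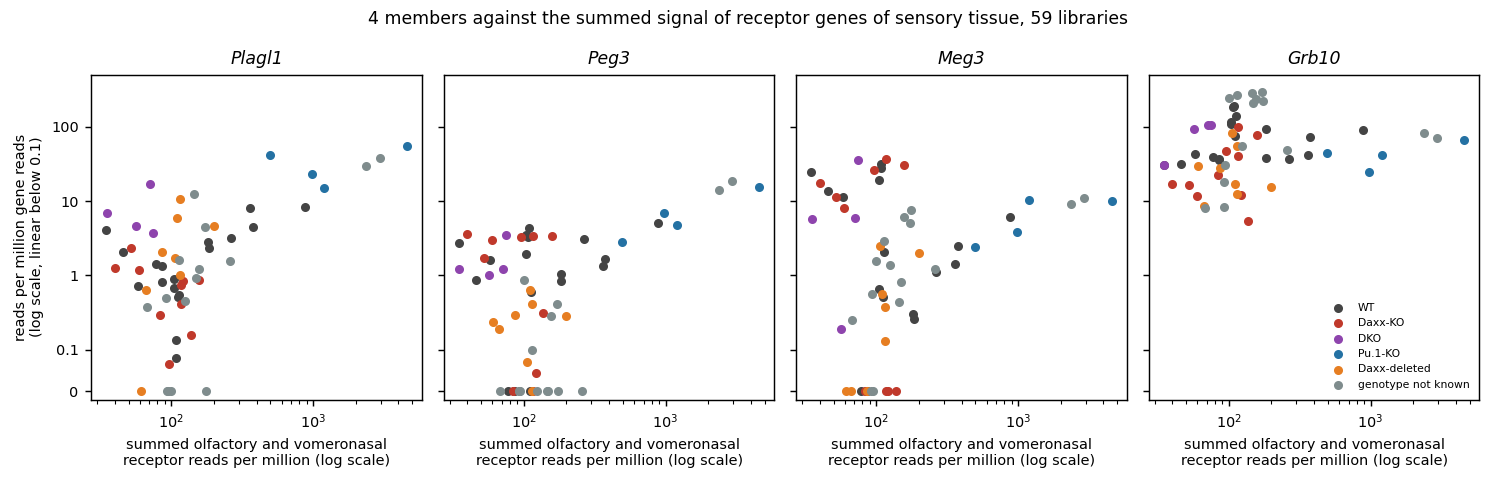
Plagl1, Peg3, Meg3 and Grb10 against receptor genes. Each point is 1 of 59 libraries, the horizontal axis gives the summed olfactory and vomeronasal receptor level and the vertical axis the level of the member, both in reads per 1000000 gene reads. In the 6 libraries with the most receptor signal (880 to 4590 r.p.m.) Peg3 lies between 4.83 and 18.6 r.p.m., and it is at most 4.32 in the other 53.

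All 4 comparisons of libraries labelled DKO or Pu.1-KO with their WT had Plagl1 higher without overlap, and none of the 6 comparisons of Daxx-KO or Daxx-deleted with WT did. That grouping was made after the values were seen. At 3 w.p.i. and in the Pu.1 line the KLS and GMP columns carry the same animal numbers, so the 4 are not independent of each other. Of all genes tested, 26% and 10.1% were higher without overlap in DKO KLS cells and GMPs, 33.7% and 31.5% in KLS cells and GMPs of the Pu.1 line, and 174 of the 13280 tested in all 4 (1.31%) were so in each. In the 6 without such a difference the shares were 32.9% and 33.1% in untimed KLS cells and GMPs, 9.07% and 4.64% at 3 w.p.i. and 9.05% and 12.7% at 24 w.p.i. By limma 2 of the 4 were called for Plagl1. At 24 w.p.i. the Daxx-deleted GMPs, which include DKO mice by label, held 15.1, 137, 103 and 246 against 30.6 and 62.9 in WT, with overlap (0.95, SE 0.86, adjusted p = 0.660 by limma). KLS cells at that time held 0 to 51.4 against 13.2 and 16.1 (-0.03, SE 1.59, adjusted p = 0.999).

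Peg3, the other zinc finger member, had its highest values in the libraries with high receptor sums. In KLS cells at 3 w.p.i. it was 57.3, 43.3 and 47.0 in WT, 44.1, 44.9 and 42.9 in Daxx-KO and 15.3 and 47.2 in DKO, with overlap. In KLS cells of the Pu.1 line it was 33.9 and 81.9 in WT and 73.7 and 169.6 in Pu.1-KO (1.07, SE 0.74, adjusted p = 0.315 by limma). In the MPP table it had 248 reads in MPP3 d, 248 in MPP4 a and 0 in the other 6 libraries, and those 2 are the ones with receptor sums of 2380 and 2943 r.p.m. No comparison called Peg3.

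Cdkn1c was the member that differed most in untimed GMPs. Its normalised read count was 2.60 and 1.81 in WT, from 2 reads in each library, and 97.3 and 141 in Daxx-KO, from 48 and 346 reads. The pooled ratio was 62.7 (95% interval 24.3 to 231, counting error only). Cdkn1c rose by 5.22 on the log2 scale (SE 0.51, adjusted p = 9.824e-05 by limma), and it passed the filter through the Daxx-KO libraries alone. A member that passes in this way has to differ, so the call and its alternatives are not read as further support. When 1 library was left out, the log2 difference lay between 4.95 and 5.48. Cdkn1c lies at chr7:143458339-143461050 on the minus strand, and 30.65% of its exonic bases are shared with the antisense gene Gm44732, which had 0 reads in every library. In the same libraries stem cell markers summed to 82.0 to 122 r.p.m. in Daxx-KO against 228 to 276 in WT, with 4 of 6 called lower, and stromal and endothelial markers to 3.18 to 5.90 against 30.6 to 33.0. Their part in the result was not tested.

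Cdkn1c stayed at few reads in the other GMP sets. At 3 w.p.i. Cdkn1c was 6.84, 14.3 and 3.95 in Daxx-KO GMPs, 2.08, 0.883 and 7.62 in WT and 21.3 and 6.90 in DKO, below the mean needed for a test. GMPs at 24 w.p.i. held 5 reads of it in 6 libraries. In untimed KLS cells it was 20.6 and 1.72 in WT and 20.8 and 20.9 in Daxx-KO (1.51, SE 0.97, adjusted p = 0.308 by limma), and WT 1 decided the value, since without it the difference was 3.00 with an adjusted p of 0.0118. In KLS cells at 3 w.p.i. it lay between 49.0 and 92.9 in WT, between 43.1 and 85.8 in Daxx-KO and between 39.3 and 53.0 in DKO, and no comparison called it.

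Meg3 was near 0 in 1 KLS library at 3 w.p.i. In KLS cells at 3 w.p.i. Meg3 (chr12:109541001-109571726, plus strand) was 363, 417 and 251 in WT, 396, 364 and 473 in Daxx-KO, and 2.87 and 484 in libraries labelled DKO. DKO 1 thus held 3 reads of Meg3 where DKO 2 held 502, and the pair spanned the range of all 8 libraries. The difference of DKO from WT was -2.96 (SE 1.45, adjusted p = 0.191 by limma). It was -6.44 with an adjusted p of 2.103e-04 without DKO 2, and 0.52 without DKO 1. In DKO 1, Rian, a non-coding RNA of the same domain, was 25.9 against 60.7 to 115 in the other 7 libraries and Mirg was 0 against 3.24 to 20.3. Dlk1 (chr12:109452823-109463336, plus strand) was 0.958, from 1 read, inside the range of 0 to 23.0 in the other 7. Peg12 was also lowest in DKO 1 at 3.83, against 20.0 to 62.8 elsewhere. DKO 1 held 15812520 gene reads in all, and Grb10 was 1413 in DKO 1 and 1419 in DKO 2. What set DKO 1 apart was not tested.

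In GMPs at 3 w.p.i. Meg3 was 183, 138 and 322 in WT, 218, 104 and 132 in Daxx-KO and 75.1 and 73.0 in DKO. Both DKO libraries were below all 6 others. The difference from WT was -1.43 (SE 0.42, adjusted p = 0.318 by limma and 0.0432 by DESeq2, the lowest of a range that reached 0.819). Untimed cells stood in contrast: Meg3 had 0 reads in all 4 untimed GMP libraries and 3 reads in the 4 untimed KLS libraries, against 1242 and 2772 reads at 3 w.p.i. The untimed libraries were shallower on the whole, 3388906 to 22647397 reads against 11384751 to 15812520, and the part of depth was not tested. The untimed and timed sets are separate tables, so a difference in how they were made cannot be told apart from one in the cells. At 24 w.p.i. Meg3 was again low, at 48.8 and 15.3 in WT KLS cells and 0, 0, 3.11 and 58.5 in Daxx-deleted ones.

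Dlk1, H19 and Igf2 stayed at few reads in all genotypes. Dlk1 passed the filter in 3 comparisons, Igf2 in 9 and H19 in 1, and none was called. Among KLS cells at 24 w.p.i. WT a held the most of Dlk1, 79.2, and of Igf2 (chr7:142650766-142666816, minus strand), 102.9, and WT b held 12.9 and 23.3. H19 (chr7:142575529-142578143, minus strand) reached 25.7 and 25.0 in KLS cells labelled Pu.1-KO against 10.8 and 11.0 in WT (1.15, SE 1.23, adjusted p = 0.505 by limma), in the table with the highest receptor sums. All 3 genes were at 0 in the 4 untimed GMP libraries, and Igf2 and Dlk1 in the 4 untimed KLS libraries as well.

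Peg12 was tested in 12 comparisons and called in none. Its normalised read count in untimed KLS cells was 18.9 and 12.1 in WT and 3.28 and 7.88 in Daxx-KO, apart but from 47 reads in all (-1.39, SE 0.79, adjusted p = 0.251 by limma). At 24 w.p.i. KLS cells held 112 and 98.1 in WT and 50.9 to 150.3 in Daxx-deleted libraries. Single libraries decided other comparisons: without DKO 2 the adjusted p in KLS cells at 3 w.p.i. was 0.0451 against WT and 0.0391 against Daxx-KO, and without Pu.1-KO b it was 0.0243 in GMPs of the Pu.1 line. Peg12 and Ndn are neighbours on chromosome 7, at chr7:62461871-62464510 (minus strand) and chr7:62346569-62350262 (plus strand).

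A list of 72 other imprinted genes gave the setting. Of these, 33 were tested in untimed KLS cells and 2 rose while 9 fell, and in untimed GMPs 6 rose and 6 fell of 30, where 23.1% and 33% of all genes tested were called. In untimed KLS cells the largest falls were those of Igf2r, the receptor that clears IGF2, at 2.67 against 199.7 in WT (-5.90, adjusted p = 1.589e-04), Airn, the antisense RNA of the Igf2r domain, at 8.13 against 211 (-4.52, adjusted p = 1.062e-04), and Htr2a, a serotonin receptor, at 13.3 against 261 (-4.19, adjusted p = 6.364e-05), all by limma. Igf2r and Airn, with means below 10 in Daxx-KO, passed the filter on low values through the WT libraries alone. Genes that pass in this way can only come out as lower, so their p-values are not read as support. In the same Daxx-KO libraries 9 of 9 tested stem cell markers were called lower, and their part in these falls was not tested. Igf2r and Airn overlap on opposite strands but share no exon bases in GENCODE M21, and whether the counting used strand is not given in the sources used here. In untimed GMPs Slc22a3, an organic cation transporter of the Igf2r domain, fell by 3.75 from 726 to 57.3, Htr2a fell by 2.36 and Osbpl5 fell by 1.52.

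At 3 w.p.i. none of 41 in KLS cells or 37 in GMPs was called in Daxx-KO against WT. In libraries labelled DKO, KLS cells had 3 higher and 6 lower of 41 against WT, led by Slc22a18 (-2.07), Ppp1r9a (-1.51) and Slc22a3 (-1.37), and 4 higher and 6 lower against Daxx-KO, led by Begain (-1.68), Igf2r (1.09) and Sfmbt2 (-0.99), where 17.6% and 15.4% of all genes were called. GMPs had 0 of 37 in both. In the Pu.1 line 0 of 61 were called in KLS cells, and 8 rose and 3 fell of 58 in GMPs, led by Gatm (-1.52), Igf2r (1.36) and Osbpl5 (1.29), against 17.6% of all genes. At 24 w.p.i. 1 of 48 fell in KLS cells (Htr2a, -2.07, adjusted p = 0.0433) and 2 of 49 in GMPs (Slc22a3, -1.89, adjusted p = 3.689e-04, and Gatm, -0.79), where 0.807% and 3.63% of all genes were called. Slc22a3 fell in untimed KLS cells as well (-3.05). Of 56 tested between MPP3 and MPP4, 0 were called.

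Of 23 genes that maintain imprints and the chromatin around them, 21 were tested in untimed KLS cells, where 3 rose and 1 fell, against 23.1% of all genes called. The fall was in Zfp57, the zinc finger protein that reads methylated imprint control regions, at 7.10 against 59.4 in WT (-2.92, SE 0.51, adjusted p = 0.004192 by limma), and Ehmt2 (0.58) and Trim28 (0.52) were among those that rose. Zfp57 passed the filter on low values through the WT libraries alone and could only come out as lower, so its p-value is not read as support. In untimed GMPs 4 rose and 7 fell of 21, against 33% of all genes called, with Uhrf1 (-1.49) and Hells (-1.42), both needed to keep methylation through replication, falling most and Dnmt3a rising by 0.69. At 3 w.p.i. 0 of 21 were called in Daxx-KO against WT in either cell type. In DKO KLS cells H3f3b, which encodes H3.3, rose by 0.67 and the methyltransferase Dnmt3b fell by 0.62 against WT, and Dnmt3b fell by 0.94 against Daxx-KO, with 17.6% and 15.4% of all genes called. In GMPs of the Pu.1 line 0 rose and 5 fell of 21, against 17.6% of all genes called, led by Dnmt3b (-1.13), Trim28 (-0.81) and Cbx5 (-0.81). None was called in the KLS cells of that line, at 24 w.p.i., in DKO GMPs or between MPP3 and MPP4.

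Genes that moved like the members were sought over the 8 KLS libraries at 3 w.p.i., among 11997 genes with a mean of 50 or more, by the root mean square difference of centred log2 values. Closest to Grb10 were Magi1 (0.123) and Pkd2 (0.190), against a spread of 0.597 for Grb10 itself. Closest to Cdkn1c were Gm37320 (0.104) and Klhdc1 (0.118), against 0.450. Meg3, whose spread of 2.21 came from DKO 1, was nearest to Enpp2 (0.518) and Nlrp3 (0.589). These distances describe 8 libraries of 3 genotypes and carry no test.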

How the data were processed

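RNA was measured by RNA-seq in 59 libraries of sorted mouse bone marrow cells. In 10 gene tables the authors deposited signal values, which are normalised read counts: whole reads divided by 1 size factor per library and table. The submitters' processing notes name CASAVA 1.8.4, cutadapt 1.13, STAR 2.5.3, DESeq2 1.16.1 and mm10, and gene positions here are those of GENCODE M21. The labels give the NuGEN Ovation SoLo kit, while the methods of the study name another kit for some cells, so the kit of each library is not settled. Every value above 0 came out as whole reads within 0.01, which gave depth and reads per 1000000 gene reads (r.p.m.). Repeat tables (8) were not used.

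Tests were made within a table on log2(value + 1) by limma 3.58.1 in R 4.3.3, its variance prior following the mean. Genes averaging 10 or more entered, with all libraries of a table in 1 fit and Benjamini-Hochberg adjustment over all genes tested. Fold changes on this scale understate the change of low genes. The design had allowed for raw counts, and the files held normalised values. Alternatives were a pseudocount of 5, no filter, TMM rescaling, edgeR 4.0.16 and DESeq2 1.42.0 on the recovered reads, leaving out each library and a replicate block. The fit was checked on simulated data. Groups came from the labels. The 24 w.p.i. groups, and the GMP, Pu.1 line and unnumbered columns, were read from animal numbers or control and treatment endings of columns. Where labels gave no number, libraries are named by letter.

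The members and lists were chosen with earlier results of these data known. All members are named. From the 72 other imprinted genes the 3 largest called changes per comparison were named among genes with a mean of 50 or more, and from the 23 maintenance genes the 3 largest called changes. In likeness, the 2 nearest genes were named for each member with a mean of 50 or more. Other genes named were chosen after their values were seen.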

Additional observations from a re-analysis of the deposited data

Results flagged for a closer look

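Single libraries stood apart from the others of their group in 18 of 45 sets of 4 or 7 libraries by Dixon's test, which chance gives in about 1 of 20 when values are normally distributed. These counts are not: in 8 of the 18 all other libraries of the set held 0, some sets mix genotypes, and 11 of the 18 come from MPP3 d and MPP4 a, so the number is not read against chance. The values are normalised read counts.

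In MPP3, library d stood apart for Dlk1 (14.2), H19 (11.0), Igf2 (33.7), Meg3 (102.3), Peg3 (160.6) and Plagl1 (328). In MPP4, library a did so for H19 (15.1), Igf2 (45.3), Meg3 (129), Peg3 (220.4) and Plagl1 (443). These are 2 of the 6 libraries with more than 20000 genes at 1 r.p.m., with receptor sums of 2380 and 2943 r.p.m., and the part of that signal in these values was not tested.

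Among Daxx-deleted libraries at 24 w.p.i., GMP d stood apart for Cdkn1c (3.13, from 4 reads), GMP c for Dlk1 (3.66) and Igf2 (11.0), GMP b for H19 (11.0), KLS c for Igf2 (46.7) and KLS d for Meg3 (58.5). These groups mix Daxx F/F with Daxx F/F Pu.1 F/F by label. In LT-HSCs, library a stood apart for Plagl1 (121.5), against 41.9 in the next highest of the 7. Of 60 pairs of the same contrast in KLS cells and GMPs, 0 had every library moving in opposite directions. Such a pair needs groups without overlap in both cell types. Many of the 60 lacked this, those of Ndn with 0 reads among them. The count is therefore not read as likeness of the 2 cell types.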

How the results depend on the processing

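Of 765 recomputed member differences (73 values), 689 kept direction and side of the threshold, 24 gained and 8 lost a call, and 44 reversed, none of them a called value, and 49 values never reversed. The count of members called was recomputed as well. In KLS cells at 3 w.p.i. it was 1 by DESeq2 and 1 with the replicate block for Daxx-KO against WT (0 as reported), 0 without a filter, 0 by edgeR and 2 with the block for DKO against WT (1 as reported), and 1 with pseudocount 5 and 1 by DESeq2 for DKO against Daxx-KO (0 as reported). DESeq2 called 2 for DKO against WT and 2 for DKO against Daxx-KO in GMPs at 3 w.p.i. (0 as reported), as well as 1 for KLS cells at 24 w.p.i. (0 as reported). In KLS cells of the Pu.1 line TMM rescaling, edgeR and DESeq2 called 1 each (0 as reported), where all genes called rose from 190 to 1745, 1919 and 1357 and the share that was higher from 57.9% to 79.5%, 87.3% and 70.3%. Other counts of all genes that moved by over 1.5 times were those by DESeq2 in KLS Daxx-KO (39 to 342), GMP Daxx-KO (13 to 80), GMP DKO against WT (40 to 262) and against Daxx-KO (8 to 278, with 13 to 20 elsewhere and a higher share of 77.8% against 100% under TMM), KLS (133 to 533) and GMP (613 to 1033) at 24 w.p.i. and MPP3 against MPP4 (0 to 30), and in untimed KLS cells without a filter (3118 to 1751). The causes were not tested.

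Same-numbered libraries showed no large shared deviation (correlation -0.0095 and -0.1112 in untimed KLS cells and GMPs, -0.1843 to 0.0682 in KLS cells at 3 w.p.i.). With 1 correlation per pair of groups, this cannot settle whether the numbers mark pairs. The replicate block left 1 member called in each untimed set (3343 and 3722 genes in all) and, in KLS cells at 3 w.p.i., 1, 2 and 0 members (81, 2084 and 1278 genes). The same 7 numbered libraries without it gave 1, 1 and 1 (134, 2971 and 2455 genes). Crossing the numbers in untimed GMPs, added after seeing the data, gave 1 member and 4921 genes. MPP3 and MPP4 were compared with the animal as a block. No paired analysis was possible in the other sets because their columns carry no replicate number.

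Reversed differences were, for the block in KLS Daxx-KO against WT, Igf2 0.21, Meg3 -0.034 and Peg12 -0.57. By edgeR and DESeq2 they were Igf2 0.049 and 0.061 (GMP DKO against WT) and 0.21 and 0.23 (GMP DKO against Daxx-KO), Cdkn1c 0.087 and 0.021 (GMP, Pu.1 line) and Plagl1 0.94 and 0.98 (KLS, 24 w.p.i., and 0.33 with pseudocount 5).

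Leaving out 1 library gave 1 to 2 members called in each untimed set, 0 to 1, 0 to 2 and 0 to 2 in KLS cells at 3 w.p.i. (in the order above), 0 to 1 in GMP DKO against Daxx-KO, 0 to 1 and 1 to 3 in KLS cells and GMPs of the Pu.1 line and 0 to 1 in GMPs at 24 w.p.i. A group left with 1 library was assumed to vary like the others. The differences that crossed 0 were Grb10 in untimed GMPs (-0.65 to 0.24), GMP DKO against WT (-0.19 to 1.58) and GMPs of the Pu.1 line (-1.08 to 0.066). In KLS Daxx-KO against WT they were Plagl1 (-0.29 to 1.13) and Peg12 (-0.22 to 0.43), in DKO against WT Igf2 (-1.21 to 0.021), Meg3 (-6.44 to 0.52) and Peg12 (-2.88 to 0.19), and in DKO against Daxx-KO Igf2 (-0.77 to 0.49), Meg3 (-6.72 to 0.24), Peg3 (-1.46 to 0.10) and Peg12 (-3.04 to 0.032). In GMPs they were Igf2 (-0.41 to 0.42), Plagl1 (-0.99 to 0.25) and Peg12 (-0.067 to 0.46) for Daxx-KO, Igf2 (-1.32 to 0.98) and Peg3 (-0.73 to 0.051) for DKO against WT and Igf2 (-1.26 to 1.04) for DKO against Daxx-KO. The others were Dlk1 in KLS (-0.19 to 0.56) and Cdkn1c in GMPs (-0.56 to 0.36) of the Pu.1 line, and Plagl1 in KLS (-0.63 to 1.27) and Peg12 in GMPs (-0.27 to 1.72) at 24 w.p.i.

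Depth limits what can be said of members at few reads, since 3 reads in a library are 0.0995 to 0.985 r.p.m.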
